A study of Rattus norvegicus with 22 samples.

Results

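The perineuronal net and brain proteoglycan genes described here are 9 genes of the ventral cervical spinal cord: Acan, Bcan, Ncan, Vcan, Hapln1, Hapln2, Hapln4, Tnr and Ptprz1. They were taken from the table of read counts by gene symbol, and they are 9 of its 32883 genes. All 9 had enough reads to be tested in every comparison. The tissue came from 22 adult Sprague-Dawley rats aged 3 to 4 months. Cervical cord from C3 to C6 was collected, the dorsal part was discarded, and RNA of the ventral part of each rat was sequenced on its own. The groups were 5 males whose testes had been removed (GDX males), 5 gonadally intact males, 6 females whose ovaries had been removed (OVX females) and 6 gonadally intact females. Gonadectomised rats were sampled 2 weeks after surgery, and the comparison animals were age-matched intact rats, with no sham operation stated.

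Perineuronal nets are dense coats of extracellular matrix around the cell body and proximal dendrites of certain neurons, and in the ventral horn they surround motor neurons and many interneurons. Chains of hyaluronan form their backbone. Lecticans, a family of chondroitin sulfate proteoglycans, bind the hyaluronan at 1 end, link proteins lock that bond, and tenascin-R joins the other ends of the lecticans to each other. The same molecules fill the looser matrix between cells and at the nodes of Ranvier, and the nets limit the plasticity of the synapses they enclose.

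The Hox and motor neuron markers of the tissue were in keeping with its label. Transcripts of cervical Hox genes summed to between 45.1 and 59.7 CPM (read counts scaled to a common library size by the trimmed mean of M-values over the 22 rats), with Hoxc6 the most abundant. Lumbar Hox genes summed to at most 0.756 CPM in any rat, and motor neuron markers, led by Prph, summed to between 498 and 922 CPM. Dorsal horn neuron markers, led by Penk, were also seen, at a sum of between 37.4 and 84.0 CPM. Each library held between 12371756 and 17571887 counted reads, and the most abundant gene of the table took between 12.3% and 17.9% of them. The study's mapping table lists a mean fragment size for each library, and by these sizes the libraries were divided here into 15 with shorter and 7 with longer fragments. The 7 were intact males 1, 3 and 6 and intact females 2, 3, 5 and 6, so no gonadectomised rat had a longer-fragment library. Part of the contrast between gonadectomised and intact rats therefore cannot be told apart from fragment length, and for the 9 members and many of the lists after castration, values within the shorter-fragment class are given as well.

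On the rat genome the lecticans and link proteins lie in pairs. Among protein-coding genes, each of the 4 lectican genes is the direct neighbour of a link protein gene. The pairs are Acan with Hapln3, Bcan with Hapln2, Ncan with Hapln4 and Vcan with Hapln1. The stretches of 250 bases just before the start of Acan, Hapln4 and Ncan are shown because Acan and Hapln4 were the members that fell after castration, while Ncan, the neighbour of Hapln4, was not called. They are taken from RefSeq on build GRCr8, written 5′ to 3′ on the strand of the gene, with each CG pair in capitals: Acan at chr1:142390701-142390950 (+ strand), Hapln4 at chr16:19375174-19375423 (- strand) and Ncan at chr16:19335657-19335906 (+ strand).
Acan: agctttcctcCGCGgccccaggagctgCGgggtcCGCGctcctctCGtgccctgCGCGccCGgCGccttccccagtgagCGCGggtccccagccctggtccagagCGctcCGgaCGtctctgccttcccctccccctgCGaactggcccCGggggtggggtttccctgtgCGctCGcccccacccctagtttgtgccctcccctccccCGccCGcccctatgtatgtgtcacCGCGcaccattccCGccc
Hapln4: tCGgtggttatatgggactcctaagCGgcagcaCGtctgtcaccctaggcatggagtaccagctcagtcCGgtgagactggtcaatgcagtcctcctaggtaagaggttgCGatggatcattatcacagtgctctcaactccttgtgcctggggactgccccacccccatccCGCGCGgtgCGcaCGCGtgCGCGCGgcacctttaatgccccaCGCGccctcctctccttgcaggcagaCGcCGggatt
Ncan: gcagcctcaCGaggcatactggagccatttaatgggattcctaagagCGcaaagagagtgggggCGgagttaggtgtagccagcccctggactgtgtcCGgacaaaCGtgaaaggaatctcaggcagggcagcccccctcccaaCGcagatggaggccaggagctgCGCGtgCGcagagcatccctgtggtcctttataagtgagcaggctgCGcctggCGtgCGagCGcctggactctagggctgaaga

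The Acan window had 24 CG pairs and a GC content of 73.6%, and 89.1% of all 33469 such windows held fewer CG pairs. Hapln4 had 18 CG pairs and a GC content of 61.2%, and Ncan had 13 and 60.8%. The medians over all windows were 5 CG pairs and 51.2% GC. Outside the printed stretches, the Tnr window held 0 CG pairs and the Hapln2 window held 2. Of the 9 members, 8 had a window and Ptprz1 had none. The letters of 6 motifs were searched on both strands, and none of these strings contains another. GGGCGG, the Sp1 box, was found 3 times before Acan, 1 time before Ncan and not before Hapln4, and it occurs in 30.5% of all windows. Ncan also held 1 TATAAA, present in 12.9% of windows, and 1 CANNTG, present in 65.5%. CCAAT, found in 34.0% of windows, was in none of the 3 printed stretches. AGAACA, the core of androgen receptor sites, and GGTCA followed after any 3 bases by TGACC, the palindrome bound by estrogen receptors, were in no member's window, against 17.5% and 0.0239% of all windows. A match or its absence describes only the letters of these windows.

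Transcripts of 2 of the 9 members fell after castration: Acan, the large lectican by which nets are often recognised, and Hapln4, the brain link protein Bral2 known from nets of the brainstem. They fell to 0.724 and 0.732 of the level in intact males, and the other 7 members differed by no more than 0.18 on the log2 scale. In the edgeR quasi-likelihood test with Benjamini-Hochberg adjustment over all genes, 1995 of 14931 genes tested were called at an adjusted p under 0.1, or 13.4%, of which 1012 were higher and 983 lower in GDX males. A count of 2 in 9 is near that background, so it sets the members apart from no other genes. The median log2 change over all genes was 0.0021. DESeq2 also called 2 members. In bulk tissue, fewer cells of a type and less RNA in each cell cannot be told apart, and gene counts do not separate the splice forms of Bcan, Vcan and Ptprz1.

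Acan stood at 39.6, 37.8, 33.1, 37.6 and 45.4 CPM in intact males 1, 2, 3, 5 and 6. In GDX males 1, 2, 4, 5 and 6 it stood at 33.3, 33.8, 21.8, 26.0 and 24.9 CPM. GDX males 4, 5 and 6 lay below every intact male, while GDX males 1 and 2 lay just above intact male 3, so the groups overlapped, and all 5 GDX males were below the intact mean. The means were 28.0 CPM (SD 5.33, n = 5) and 38.7 CPM (SD 4.46, n = 5), a log2 change of -0.47 (SE 0.11, 95% confidence interval -0.71 to -0.22, edgeR adjusted p = 0.0214). This is 0.724 of the intact level. With 323 to 692 reads per male library, Acan is among the 2 members with the fewest reads. Within the shorter-fragment libraries (5 GDX and 2 intact males) the change was -0.43 and no longer called (adjusted p = 0.161).

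The other 3 lecticans were not called after castration. Bcan encodes brevican, which is made by glia and neurons and lies around synapses. It ranged from 272 to 303 CPM in intact males and from 244 to 290 in GDX males, a log2 change of -0.06. Ncan encodes neurocan, an astrocyte and neuron product best known from the developing brain, and its log2 change was 0.06, from 189 to 215 CPM in intact and 200 to 221 in GDX males. Vcan encodes versican, whose main adult form is laid down by oligodendrocyte lineage cells at nodes. All 5 GDX males lay above the intact mean of Vcan, yet intact male 1, at 138 CPM, exceeded all of them except GDX male 5, at 148, and the log2 change of 0.11 was not called (adjusted p = 0.231).

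Among the link proteins, Hapln4 stood at 157, 166, 136, 157 and 160 CPM in intact males 1, 2, 3, 5 and 6. In GDX males 1, 2, 4, 5 and 6 it stood at 138, 133, 92.1, 95.4 and 109 CPM. The order of rats resembled that of Acan: GDX males 4, 5 and 6 were lowest, GDX males 1 and 2 were near the lowest intact male, and only GDX male 1 reached into the intact range. The means were 113 CPM (SD 21.2, n = 5) and 155 CPM (SD 11.3, n = 5), a log2 change of -0.45 (SE 0.10, 95% confidence interval -0.66 to -0.24, edgeR adjusted p = 0.0147), or 0.732 of the intact level. Within the shorter-fragment libraries the change was -0.51 and was not called (adjusted p = 0.106). With fragment class as a term over all 10 males, Hapln4 stood at -0.51 and was called, while Acan stood at -0.43 and was not (adjusted p = 0.143). The libraries of GDX males 4, 5 and 6 also differed from the others of their group in the share of their most abundant gene. It took 17.9%, 16.7% and 15.9% of their reads, against 13.5% and 13.8% in GDX males 1 and 2.

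Hapln1, the link protein of cartilage as well as of nets, ranged from 15.3 to 19.6 CPM in intact males and from 13.1 to 18.6 in GDX males, with a log2 change of -0.18 (adjusted p = 0.346). Hapln2 (Bral1) is made by oligodendrocytes and sits at nodes of Ranvier. It was tight in intact males, at 221 to 235 CPM, and wide in GDX males, at 182 to 238, with a log2 change of -0.12 (adjusted p = 0.294). Tnr encodes tenascin-R, the oligodendrocyte-lineage and interneuron protein that cross-links lecticans. All 5 GDX males lay below the intact mean of Tnr, at 149 to 168 CPM against 165 to 185, but the log2 change of -0.11 was not called (adjusted p = 0.152). Ptprz1 encodes a receptor phosphatase of glia whose secreted form, phosphacan, binds tenascin-R. It was the member closest to even between the male groups, at 281 to 303 CPM in intact and 287 to 311 in GDX males, a log2 change of 0.03 (adjusted p = 0.661). Within the shorter-fragment class the 7 members not called stood at -0.08 for Bcan, 0.08 for Ncan, 0.16 for Vcan, -0.17 for Hapln1, -0.15 for Hapln2, -0.06 for Tnr and 0.06 for Ptprz1.

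Without GDX male 1, 4 members were called in place of 2: Hapln2 at -0.17 (adjusted p = 0.0792) and Tnr at -0.14 (adjusted p = 0.0896) joined Acan and Hapln4, and in the same fit the number of all genes called went from 1995 to 2446. In no member were the 5 GDX and the 5 intact males fully apart, and 7.47% of all genes tested had groups that did not overlap. For so few genes a count of 0 is near that share.

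**Figure D1:**
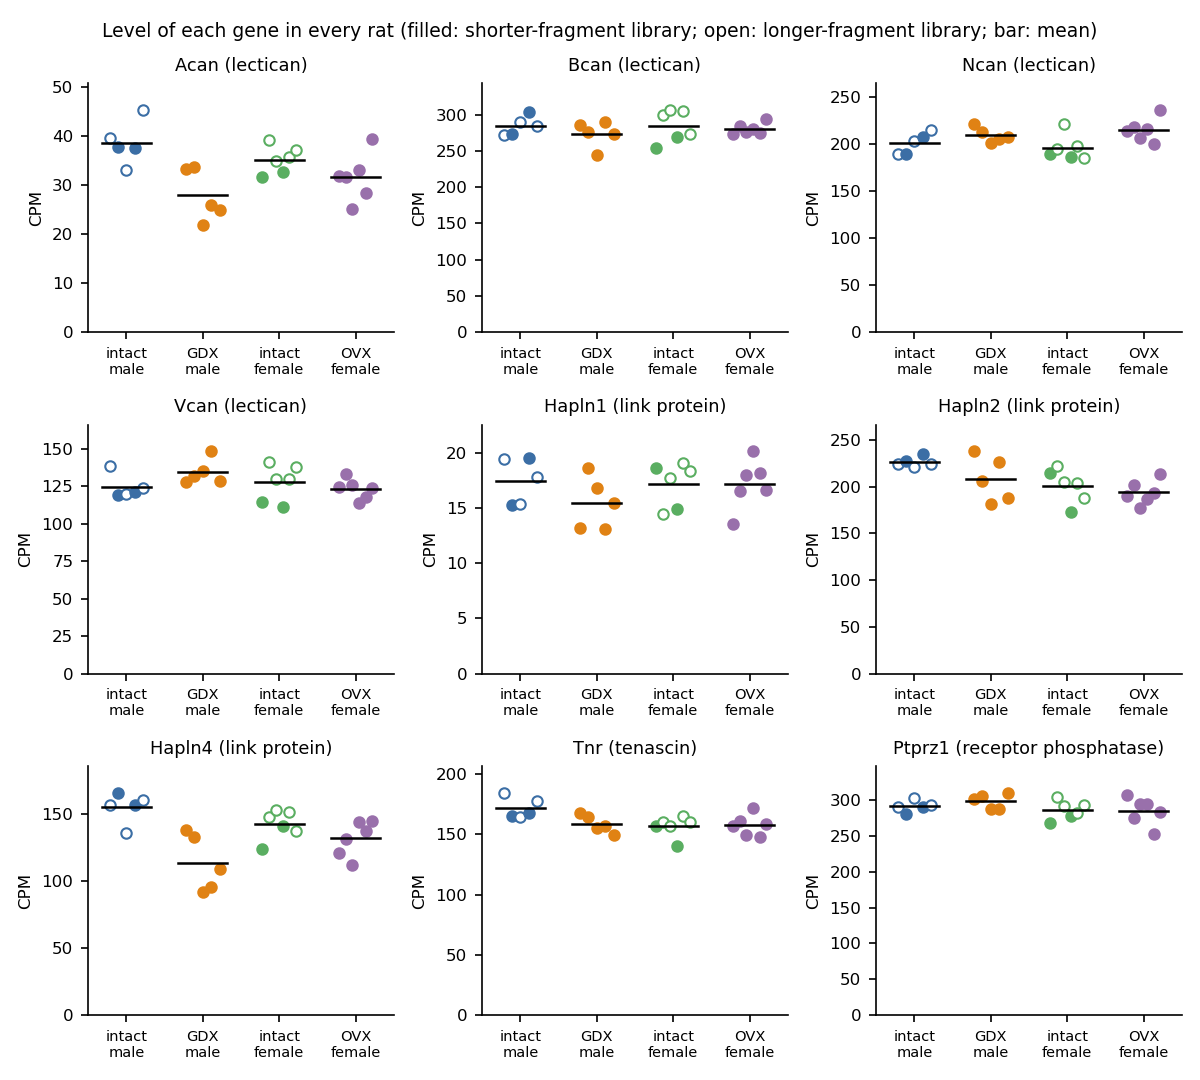
Level of each of the 9 genes in every rat, in CPM on linear axes, with 1 point per rat (filled for shorter-fragment, open for longer-fragment libraries) and a bar at the mean of each group. Acan and Hapln4 are lowest in GDX males, at means of 28.0 and 113 CPM.

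A list of genes drawn up for neurons that carry nets was lower beside Acan and Hapln4. Bulk RNA does not show whether these transcripts came from cells with nets. The list, called net-bearing neuron genes, holds 14 genes, among them ion channels and transmitter genes. Of these, 9 were called lower in GDX males and none higher, all 14 had a negative log2 change, and the median was -0.29, against 0.0021 over all genes and -0.32 within the shorter-fragment class. The edgeR count of 9 stands against 13.4% called of all genes by edgeR. Because the list was chosen with earlier results of these data known, this is a description and not a test of enrichment. DESeq2 called 9 as well, and within the shorter-fragment class edgeR called 3 of the 14. That smaller fit, of 7 males, called 440 genes in all. Slc6a5, the glycine transporter of inhibitory neurons, fell by 0.37 on the log2 scale (adjusted p = 0.0068). The potassium channels Kcna2 and Kcna1 changed by -0.25 and -0.32, and the sodium channels Scn1a and Scn8a by -0.24 and -0.36.

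The summed level of the list was 3238, 3122, 2927, 3050 and 3198 CPM in intact males 1, 2, 3, 5 and 6, with Kcna2 the most abundant gene. In GDX males 1, 2, 4, 5 and 6 it was 2721, 2654, 2390, 2258 and 2562 CPM. In this sum every GDX male was below every intact male, and GDX males 1 and 2 were again the highest of their group. The sum is made of the same genes as the counts above, so its separation is no independent result. Of the broader neuron markers, 4 of 10 were lower and none higher: Rbfox3 by -0.33, Snap25 by -0.20, Map2 by -0.15 and Nefh by -0.29, with a median of -0.19 over the list that shrank to -0.05 within the shorter-fragment class, where 1 was called. Of 9 motor neuron markers, Ache (-0.29) and Slc18a3 (-0.43), both of acetylcholine transmission, were lower. A count of 2 in 9 is near the 13.4% called of all genes. Within the shorter-fragment class 0 motor neuron markers were called by edgeR, and the median went from -0.16 to -0.04. With the level of the neuron list as a term in the fit, an alternative chosen after seeing the data, Hapln4 was still called at -0.47 (adjusted p = 0.0694). Acan was not called in that fit, at -0.34 (adjusted p = 0.202), and adjusted p over the alternatives ran from 0.00166 to 0.960 for Acan and from 0.00335 to 0.914 for Hapln4.

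Markers of the meninges and fibroblasts moved the other way. Of the 10 listed, Col1a2 was not in the table and Ogn had too few reads, and the other 8 were all higher in GDX males, with a median log2 change of 1.59 in all males and in the shorter-fragment class, where 6 were called. The 5 with the smallest p were Slc6a13 (1.57), Col3a1 (1.73), Fbln1 (0.97), Igf2 (1.60) and Col1a1 (1.81), the last being the most abundant. The summed level was 210, 147, 153, 104 and 77.6 CPM in intact males 1, 2, 3, 5 and 6. It was 197, 314, 442, 594 and 485 CPM in GDX males 1, 2, 4, 5 and 6. The 3 GDX males with the lowest Acan and Hapln4, GDX males 4, 5 and 6, had the highest level of these markers, and GDX male 1 lay within the intact range. With the level of this list as a term, also chosen after seeing the data, 0 members and 7 genes in all were called by edgeR, and the changes were -0.06 for Acan and -0.11 for Hapln4. At an unadjusted p under 0.05 the fit without that term had 3 members. Because the list and the group moved together in these 10 rats, their parts in the result cannot be told apart.

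Of 7 endothelial markers, 6 were higher, among them Cdh5 (1.23), Tek (0.49), Slco1a4 (0.45), Cldn5 (0.48) and Tie1 (0.49). Within the shorter-fragment class 2 were called, and the median went from 0.49 to 0.36. Of 6 Schwann cell markers tested, 2 were called higher, among them Prx (1.07), and all 6 were positive, with a median of 0.94. Within the shorter-fragment class the median was 1.66 and 3 were called, while DESeq2 called 0 over all 10 males, where 4 had an unadjusted p under 0.05 in edgeR. Glial lists, whose cells make much of the brain's lecticans, were mixed. Of all genes 13.4% were called, and the oligodendrocyte count of 2 in 10 is near that share. Gfap (0.38) and Aqp4 (0.18) were higher and Fgfr3 (-0.15) lower of 10 astrocyte markers. Ermn (0.24) and Mbp (0.17) were higher of 10 oligodendrocyte markers. Of 9 markers of oligodendrocyte precursors, a list that includes Tnr, Pdgfra (0.23) was higher and Olig1 (-0.27) and Pcdh15 (-0.24) were lower. Within the shorter-fragment class 1 astrocyte, 1 oligodendrocyte and 0 precursor markers were called by edgeR.

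In 4 lists edgeR called 0 genes over all 10 males. These were microglia (7 tested, 1 at an unadjusted p under 0.05, 1 called by DESeq2), cartilage (8 tested, 1 and 0), dorsal horn neurons (6 tested, 1 and 0) and cervical Hox (5 tested, 1 and 0). Their most abundant genes were Csf1r (log2 change 0.10), Col11a2 (-0.20), Penk (-0.37) and Hoxc6 (0.13). Between all males and the shorter-fragment class the median log2 change went from 0.14 to 0.14 for microglia, from -0.0055 to -0.12 for cartilage, from 0.02 to -0.13 for dorsal horn neurons and from -0.20 to -0.43 for cervical Hox. Within that class 1 cervical Hox gene was called. Acan and Hapln1 are also main products of cartilage, and Col2a1, the chief cartilage collagen, averaged 6.63 CPM in intact and 6.77 CPM in castrated rats.

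The genes that make, bind and cut the net's components were counted from lists of the same pathway. Of 11 genes for hyaluronan and its links, Cemip, which degrades hyaluronan, was higher by 1.54 (adjusted p = 0.00554) and Cd44, its main receptor, by 0.45 (adjusted p = 0.00554). Hapln3, the neighbour of Acan, stood at -0.02. Of 21 genes of chondroitin sulfate synthesis 3 were lower, the chain polymerising factors Chpf2 (-0.23) and Chpf (-0.28) and the linker enzyme B3galt6 (-0.42), and 1 was higher, the epimerase Dsel (0.49). Among 19 receptors and partners, tenascin-C (Tnc, 0.49) and the Ptprz1 ligand pleiotrophin (Ptn, 0.27) were higher. The adhesion molecules L1cam (-0.36) and Nrcam (-0.14), the neuronal pentraxin Nptx1 (-0.45), Crtac1 (-0.45) and the chondroitin sulfate receptor Ptprs (-0.21) were lower. Of 13 cleaving proteases and their inhibitors, Adamts9 (0.27), Adamts15 (0.70), Mmp2 (0.47) and the inhibitor Timp3 (0.48) were higher and Adamts20 (-0.26) was lower. The counts of 2 in 11 and 4 in 21 are near the 13.4% called of all genes. Within the shorter-fragment class edgeR called 1 hyaluronan gene, 0 chondroitin sulfate genes, 5 receptors and partners and 1 protease or inhibitor.

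**Figure D2:**
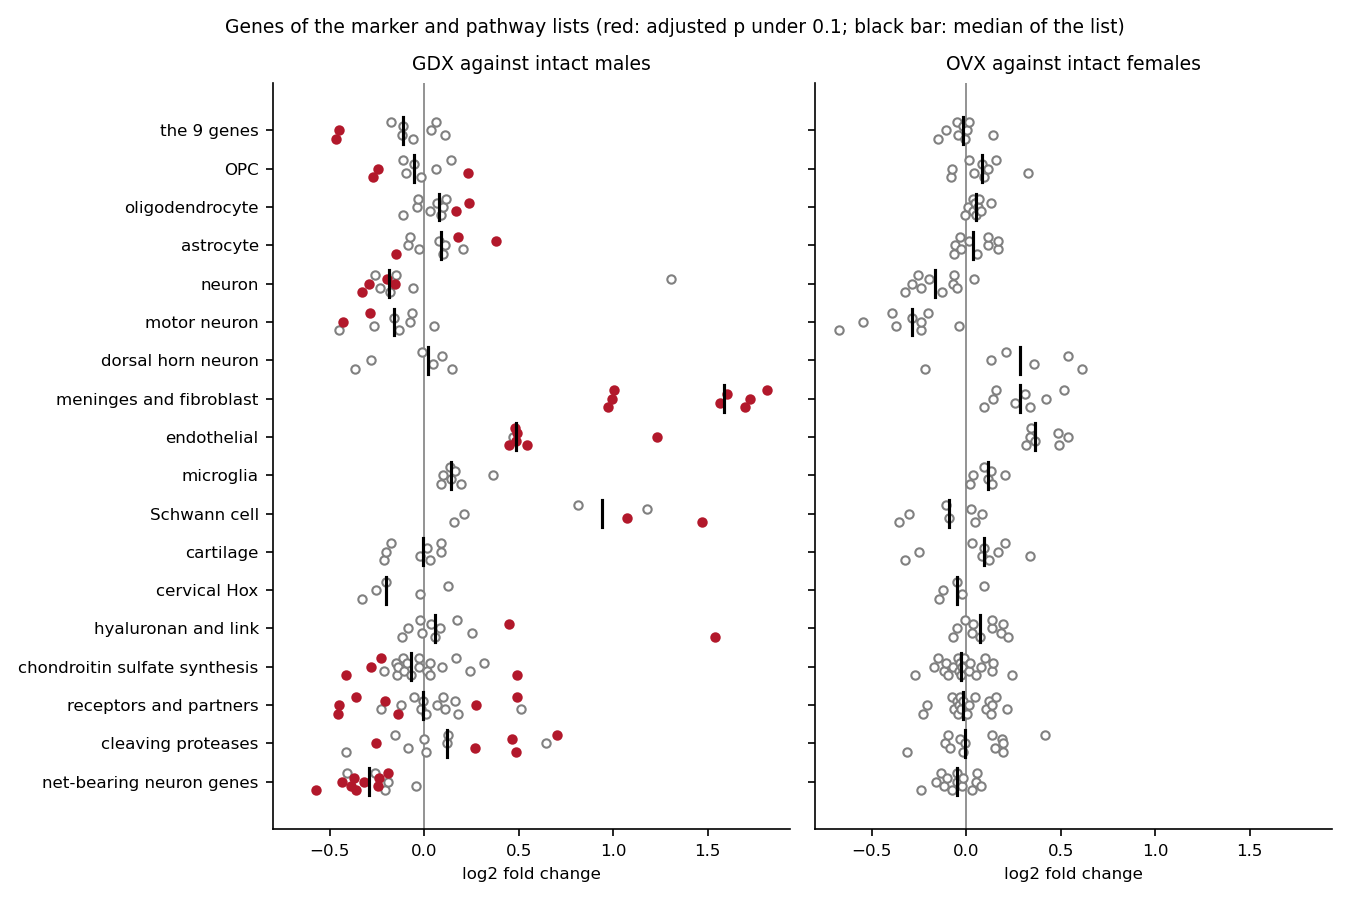
Log2 fold changes of the genes of each list, GDX against intact males on the left and OVX against intact females on the right, with 1 point per gene, red where the adjusted p is under 0.1, and a bar at the list median (OPC, oligodendrocyte precursors). All 14 net-bearing neuron genes lie below 0 in males, and all 8 meninges and fibroblast genes lie above 0.

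Ovariectomy changed no member past the threshold. edgeR called 0 of 9, 1 member had an unadjusted p under 0.05, and DESeq2 called 0. Over all 14910 genes edgeR called 5, or 0.0335%, with 1516 at an unadjusted p under 0.05 and 174 called by DESeq2. Acan ranged from 31.6 to 39.3 CPM with a median of 35.3 in intact females, and from 25.1 to 39.5 with a median of 31.8 in OVX females. Hapln4 ranged from 124 to 153 with a median of 145 and from 112 to 145 with a median of 135. For both genes the OVX range reached lower and overlapped most of the intact range. The log2 changes were -0.15 for Acan (95% confidence interval -0.33 to 0.03, adjusted p = 0.583) and -0.11 for Hapln4 (-0.24 to 0.03, adjusted p = 0.613). Within the shorter-fragment libraries (6 OVX and 2 intact females) they were -0.03 and -0.0084.

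Ncan had the smallest p of the members in females. It ranged from 186 to 221 CPM with a median of 192 in intact females, and from 200 to 236 with a median of 215 in OVX females. All 6 OVX females lay above the intact mean, and the highest intact rat, intact female 3, stood apart from the other 5. The log2 change was 0.14 (SE 0.05, unadjusted p = 0.00916, adjusted p = 0.312) and 0.20 within the shorter-fragment class. The other 6 members lay between -0.05 and 0.01. No member had groups fully apart, against 0.543% of all genes.

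None of the 174 tested genes of the marker and pathway lists was called by edgeR after ovariectomy, with 36 at an unadjusted p under 0.05 and 11 called by DESeq2. Net-bearing neuron genes had a median log2 change of -0.05, with 10 of 14 negative, and their most abundant gene Kcna2 stood at -0.05. Motor neuron markers had a median of -0.29, with 9 of 9 negative, 7 at an unadjusted p under 0.05 and 3 called by DESeq2, and a median of -0.10 within the shorter-fragment class. Broader neuron markers had a median of -0.16, with 9 of 10 negative, 6 at an unadjusted p under 0.05 and 3 called by DESeq2, and a median of -0.12 within that class. Endothelial markers had a median of 0.36, with 7 of 7 positive, 6 at an unadjusted p under 0.05 and 1 called by DESeq2, and a median of 0.50 within that class. Meninges and fibroblast genes had a median of 0.28, with 8 of 8 positive and Col1a1 at 0.52 (adjusted p = 0.571). The summed level of the latter list ranged from 158 to 478 CPM in intact females and from 293 to 505 in OVX females, and 4 of 6 intact females lay within the range of the GDX males.

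Whether the response to castration differed from that to ovariectomy was tested directly over the 22 rats. edgeR called 0 of 9 members, with 2 at an unadjusted p under 0.05 and 0 called by DESeq2. Over 15562 genes it called 18, or 0.116%, with 1810 at an unadjusted p under 0.05 and 243 called by DESeq2. For Hapln4 the log2 difference, castration minus ovariectomy, was -0.34 (95% confidence interval -0.60 to -0.08, unadjusted p = 0.0130, adjusted p = 0.275). Acan had a difference of -0.31 (SE 0.15, unadjusted p = 0.0499, adjusted p = 0.430). A difference between the sexes in the responses of these genes was therefore not called. All 14 net-bearing neuron genes had a negative difference, with a median of -0.22 and 6 at an unadjusted p under 0.05, and edgeR called 0 of them and DESeq2 3. Meninges and fibroblast genes had a positive difference in 8 of 8, with a median of 1.24 and 7 at an unadjusted p under 0.05, and edgeR called 0 and DESeq2 2. Schwann cell genes had a positive difference in 7 of 7, with a median of 0.97 and 5 at an unadjusted p under 0.05, and both tools called 0. Of 176 list genes edgeR called Cd44 alone, at 0.51 (adjusted p = 0.0973), while DESeq2 called 13. Within the shorter-fragment class Cd44 stood at 0.30 (edgeR adjusted p = 0.501).

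**Figure D3:**
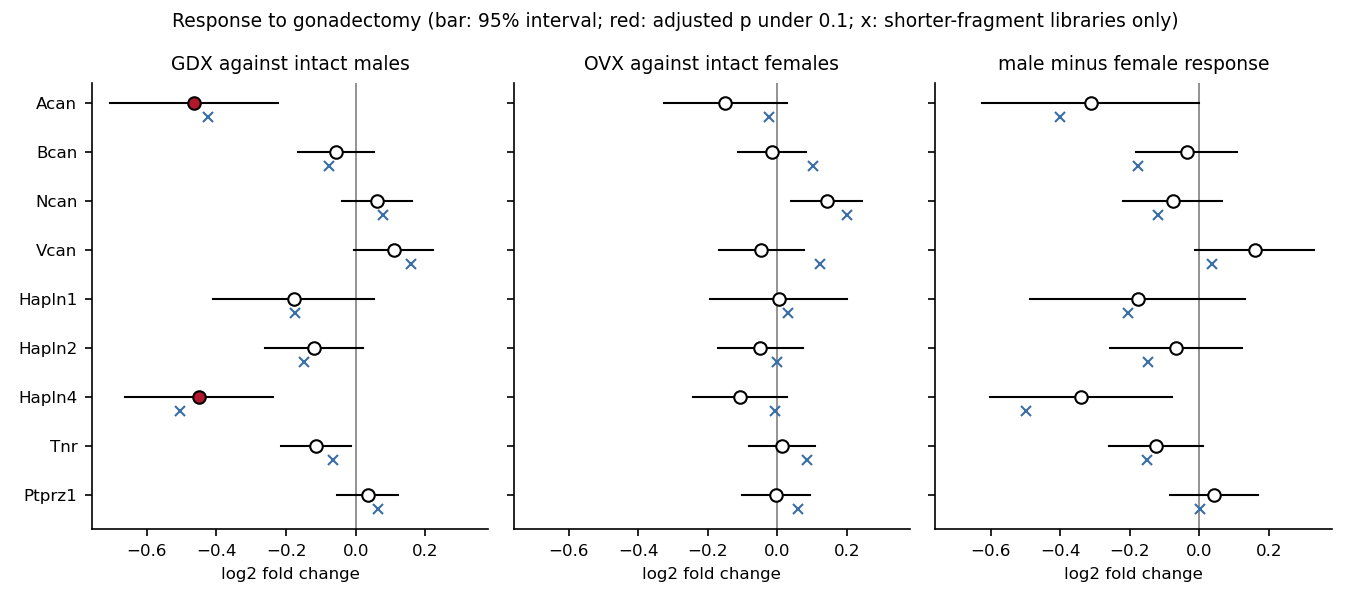
Log2 fold change of each of the 9 genes in castration, ovariectomy and their difference, with points at the edgeR estimate (red where the adjusted p is under 0.1), bars for the 95% confidence interval and crosses for the shorter-fragment libraries. In castration the intervals of Acan, Hapln4 and Tnr lie below 0, at estimates of -0.47, -0.45 and -0.11.

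Between intact males and intact females no member was called by edgeR. The count was 0 of 9, with 3 members at an unadjusted p under 0.05, and DESeq2 called 2. Over 14937 genes edgeR called 599, or 4.01%, with 2317 at an unadjusted p under 0.05 and 820 called by DESeq2. Hapln2 ranged from 173 to 222 CPM with a median of 205 in intact females, and all 5 intact males lay above the female mean. Its log2 difference, male against female, was 0.17 (SE 0.05, edgeR adjusted p = 0.127, range over the alternatives 0.0484 to 0.405). Tnr also had all 5 intact males above the mean of intact females, which ranged from 140 to 165 CPM with a median of 159, and a difference of 0.14 (SE 0.05, edgeR adjusted p = 0.141, range over the alternatives 0.0739 to 0.439). Both were called by DESeq2, Hapln2 also without intact female 1 (adjusted p = 0.0814) or without intact female 2 (adjusted p = 0.0570), and Tnr with fragment class as a term (adjusted p = 0.0808). No member had groups fully apart, against 2.67% of all genes.

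Net-bearing neuron genes Slc6a5 (0.24), Kcna2 (0.19) and Scn1a (0.13) were higher in intact males than in intact females, and 6 of 8 meninges and fibroblast genes were lower, led by Slc6a13 (-1.34). Among the pathway genes Cd44 (-0.49), Cemip (-1.30), Timp3 (-0.49), Adamts15 (-0.99) and Ptn (-0.19) were lower and Mmp14 (0.44) and Crtac1 (0.27) higher. Of the other cell markers Pcdh15 (0.32), Gpr17 (0.40) and Snap25 (0.14) were higher, and Prx (-1.50), Drp2 (-0.24), Cdh5 (-1.13) and Cnmd (-2.16) were lower. In all, 8 of 173 list genes were higher and 16 lower, beside 4.01% called of all genes. Within the shorter-fragment class (2 intact males and 2 intact females) 1 list gene was called, and 34 genes in all. The endothelial median went from -0.19 to 0.11 in that class. The contrasts between intact males and intact females use the same intact males as the castration contrast.

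Between GDX males and OVX females edgeR called 0 of 9 members, with 1 at an unadjusted p under 0.05 and 0 called by DESeq2. Over 15084 genes it called 35, or 0.232%, with 1413 at an unadjusted p under 0.05 and 130 called by DESeq2. All of these libraries were of the shorter-fragment class. Vcan had all 5 GDX males above the mean of OVX females, which ranged from 114 to 133 CPM with a median of 124, and a log2 difference of 0.13 (unadjusted p = 0.0200, adjusted p = 0.418). Hapln4 stood at -0.21 and Acan at -0.17. Of 175 list genes edgeR called 0, with 23 at an unadjusted p under 0.05 and 3 called by DESeq2. No member had groups fully apart, against 1.35% of all genes.

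Ordered by mean level, both Acan and Hapln4 were highest in intact males, then intact females, then OVX females, and lowest in GDX males. No pair of neighbours in that order was called different: the adjusted p ran from 0.388 to 0.701 for Acan and from 0.298 to 0.613 for Hapln4. Hapln2 had means from 194 CPM in OVX females to 226 in intact males, and Ncan from 196 in intact females to 215 in OVX females. Bcan had medians of 285 CPM in intact and 276 in GDX males, and of 287 in intact and 278 in OVX females. Those of Ptprz1 were 291, 302, 288 and 289 in the same order. The spread among rats of a group, as SD over mean, was widest for Acan and Hapln4 in GDX males, at 19.1% and 18.6%, and narrowest for Hapln2 in intact males, at 2.30%.

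Fragment class itself was compared among the 11 intact rats, with sex as a term. edgeR called 0 of 9 members, with 2 at an unadjusted p under 0.05 and 0 called by DESeq2. Over 15401 genes it called 1, Penk, a dorsal horn marker, or 0.00649%, with 1185 at an unadjusted p under 0.05 and 57 called by DESeq2. All 9 members had a positive log2 difference, longer against shorter, with a median of 0.07. Vcan had the largest, 0.17 (unadjusted p = 0.00384, adjusted p = 0.403), Acan stood at 0.13 and Hapln4 at 0.03. Among the cell markers, motor neuron genes were positive in 9 of 9, with a median of 0.38, 8 at an unadjusted p under 0.05, and 0 called by edgeR and 2 by DESeq2. Broader neuron genes were positive in 9 of 10, with a median of 0.11, 6 at an unadjusted p under 0.05, and 0 called by edgeR and 1 by DESeq2. Schwann cell genes had a median of 0.53 and dorsal horn genes, Penk included, one of -0.37.

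The levels of the members were then compared from rat to rat after the mean of each group was removed. Each member was set against each of the other 8 and against the mean level of 12 marker lists, which gave 144 relations, tested by 100000 two-sided permutations of rats within groups. Of these, 11 had a Benjamini-Hochberg adjusted p under 0.1 for Pearson's r, 9 positive and 2 negative, and 5 for Spearman's rho. With levels centred within group and fragment class 1 relation was called, and with a prior count of 0.5 there were 10.

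Acan and Hapln4 rose and fell together over the 22 rats, with r = 0.80 (permutation p = 0.0005, adjusted p = 0.0283) and rho = 0.74 (permutation p = 0.0017, adjusted p = 0.0490). Without the 2 rats farthest from the median, GDX males 1 and 4, r was 0.72. It was 0.84 among the 15 shorter-fragment and 0.64 among the 7 longer-fragment libraries. Hapln4 also followed the net-bearing neuron genes, with r = 0.78 (permutation p = 0.00034, adjusted p = 0.0283) and rho = 0.79 (permutation p = 0.00031, adjusted p = 0.0149). There r was 0.73 without GDX male 5 and OVX female 3, 0.83 in the shorter-fragment class and 0.38 in the longer. With levels centred within group and fragment class, r stayed at 0.80 for Acan with Hapln4 and at 0.77 for Hapln4 with the list, while the adjusted p of each rose to 0.105. Acan against the same list had r = 0.52 (permutation p = 0.0534, adjusted p = 0.226) and rho = 0.56 (permutation p = 0.0238, adjusted p = 0.183), which is not called.

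Against the meninges and fibroblast list, Acan had r = -0.47 (permutation p = 0.0396, adjusted p = 0.197) and rho = -0.36 (permutation p = 0.134). Hapln4 had r = -0.46 (permutation p = 0.0636, adjusted p = 0.246) and rho = -0.49 (permutation p = 0.0362), so neither relation was called within groups. Acan and the Schwann cell list ran in opposite directions, with r = -0.61 (permutation p = 0.00369, adjusted p = 0.0653) and rho = -0.58 (permutation p = 0.00948, adjusted p = 0.183). This r was -0.67 without intact males 3 and 5, -0.74 in the shorter-fragment class and -0.95 in the longer. It is the relation that was called after centring within group and class, at -0.75 (adjusted p = 0.0432).

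**Figure D4:**
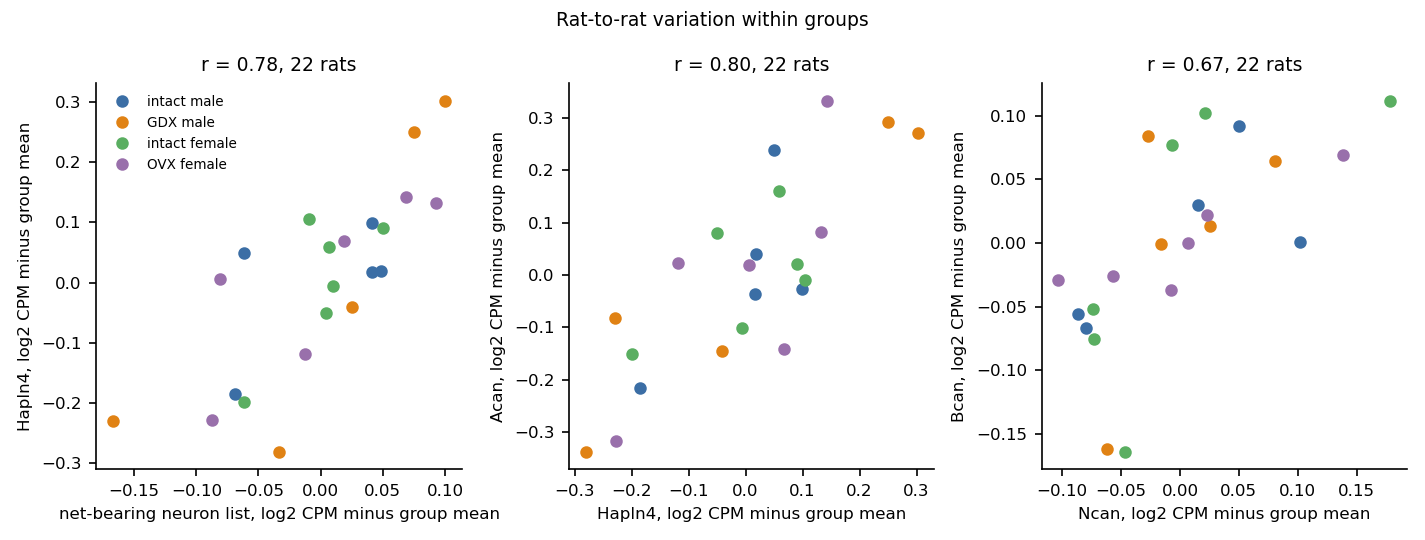
Group-centred log2 CPM in the 22 rats for Hapln4 against the mean of the net-bearing neuron genes, Acan against Hapln4 and Bcan against Ncan, with 1 point per rat coloured by group. The Pearson r are 0.78, 0.80 and 0.67.

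Relations were also called for Bcan, Hapln2 and Tnr. Bcan and Ncan moved together, with r = 0.67 (permutation p = 0.00087, adjusted p = 0.0313) and rho = 0.75 (permutation p = 0.00022, adjusted p = 0.0149). Without OVX female 6 and intact female 3 this r was 0.61, and it was 0.64 in the shorter-fragment and 0.73 in the longer-fragment class. Bcan followed the astrocyte list, with r = 0.64 (permutation p = 0.00408, adjusted p = 0.0653) and rho = 0.54 (permutation p = 0.0210), and r was 0.44 without intact female 1 and intact male 1. Hapln2 followed the oligodendrocyte precursor list, with r = 0.74 (permutation p = 0.0024, adjusted p = 0.0576) and rho = 0.56 (permutation p = 0.0183). Tnr followed the same list, with r = 0.68 (permutation p = 0.00203, adjusted p = 0.0576) and rho = 0.57 (permutation p = 0.00947). Without GDX male 1 and intact female 4 these r were 0.58 and 0.51. In that list Tnr was left out when it was the member compared. The r in the shorter- and longer-fragment class were 0.51 and 0.38 for Bcan, 0.83 and 0.33 for Hapln2 and 0.68 and 0.24 for Tnr.

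Acan also followed Tnr, with r = 0.62 (permutation p = 0.0032, adjusted p = 0.0653) and rho = 0.76 (permutation p = 0.00021). This r was 0.68 without OVX female 4 and intact female 4, 0.59 in the shorter-fragment and 0.60 in the longer-fragment class. Acan and Ncan had r = 0.55 (permutation p = 0.00668, adjusted p = 0.0962) and rho = 0.49 (permutation p = 0.0264), with 0.57 without OVX female 6 and intact female 3. In the shorter-fragment class it was 0.77 and in the longer 0.02, so it did not hold within both. Ptprz1 followed the motor neuron list, with r = 0.67 (permutation p = 0.00059, adjusted p = 0.0283) and rho = 0.72 (permutation p = 0.00051, adjusted p = 0.0184). That relation stood at 0.76 without intact female 1 and intact male 6, at 0.83 in the shorter-fragment class and -0.14 in the longer, so it did not hold within both. Ptprz1 ran against the dorsal horn list, with r = -0.63 (permutation p = 0.00745, adjusted p = 0.0975) and rho = -0.54 (permutation p = 0.0215). This r was -0.62 without GDX male 2 and OVX female 5, -0.54 in the shorter-fragment and -0.41 in the longer-fragment class. With a prior count of 0.5 it was -0.60 and not called (adjusted p = 0.131).

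**Figure D5:**
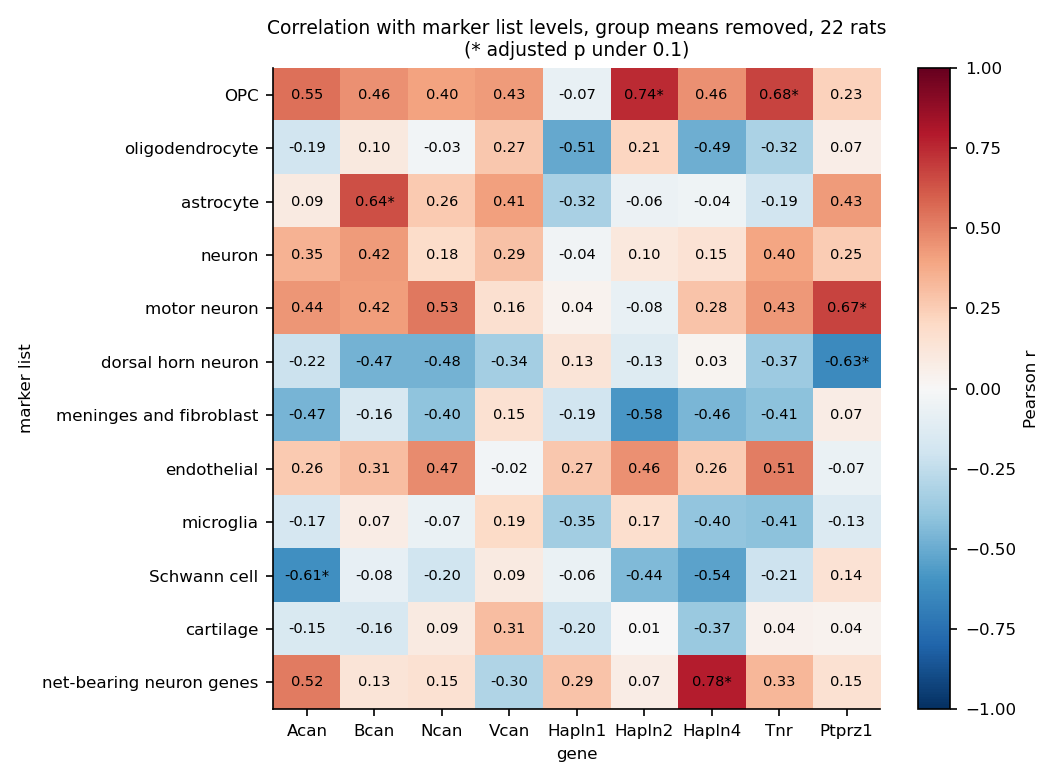
Pearson r of group-centred log2 CPM of each of the 9 genes with each marker list over the 22 rats, on a colour scale from blue (negative) to red (positive), with an asterisk where the adjusted p is under 0.1 (OPC, oligodendrocyte precursors). The highest value is that of Hapln4 with the net-bearing neuron genes, 0.78.

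The genes most alike to each member across the 22 rats, by Pearson r of group-centred levels, are given as a description with no test, since they were chosen for that likeness. Hapln4 had the highest values, with Dctn1, a subunit of the dynactin motor complex (r = 0.95), and Syt2, the calcium sensor of fast synapses (0.94). After castration Syt2 fell by 0.40 on the log2 scale, and Dctn1 stood at -0.18 (adjusted p = 0.143). Acan was nearest to Ebi3 (0.89), the transporter Abcc5 (0.87) and Dpysl2, a regulator of axonal microtubules (0.87). Of these, Abcc5 fell by 0.28 after castration (edgeR adjusted p = 0.0106) and Dpysl2 stood at -0.07 (edgeR adjusted p = 0.395). Ebi3 had too few reads to be tested in that comparison.

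Hapln2 was nearest to Kndc1, Plekhh1 and Myrf, the last a transcription factor of myelinating oligodendrocytes, with r of 0.90, 0.90 and 0.89. Bcan was nearest to Susd6 (0.88), Wdr97 (0.83) and Gpsm1 (0.82), and Ncan to Sash1 (0.82), the growth factor receptor Fgfr3 (0.81) and Sema7a (0.80). Tnr was nearest to Frmd4b (0.83), Sel1l (0.80) and Gnptab (0.79). For Vcan they were the amino acid transporter Slc38a2 (0.81), Errfi1 (0.76) and Map3k2 (0.75), and for Ptprz1 LOC500712 (0.80), Tfcp2l1 (0.78) and Aup1 (0.78). Hapln1, the member with the fewest reads, had the loosest neighbours, AABR07039336.2 (0.73), SNORD115 (0.73) and Prkar2b (0.72).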

How the data were processed

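Read counts per gene were measured in ventral cervical cord of 22 rats, 1 library per rat. The authors deposited raw counts, with no normalization. The study's methods name Trimmomatic, Hisat2 and featureCounts, while the submitters' processing notes name TopHat2 2.0.13, Subread and edgeR with build Rnor_6.0. The settings for strand, multiple mapping and overlap are not stated. Libraries held 12371756 to 17571887 counted reads.

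Each comparison was fitted across all genes with edgeR 4.0.16 in R 4.3.3: filterByExpr, TMM factors, quasi-likelihood test, Benjamini-Hochberg over all genes tested, called at an adjusted p under 0.1. Log2 CPM used a prior count of 2. The p-values describe the spread between rats. The code was tested on simulated data. DESeq2 1.42.0 was the other tool. The alternatives were RLE factors, the most abundant gene left out, no filter, a threshold of 0.05, all 22 rats in 1 fit, fragment class as a term, shorter-fragment libraries alone, a block for rat number, and leaving out single rats in turn. For correlations they were a prior count of 0.5 and centring within group and fragment class. The meninges and neuron list levels as terms were chosen after seeing the data. Correlations and figures used Python 3.11.15 with scipy 1.17.1 and matplotlib 3.10.9.

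Members and lists were chosen with earlier results of these data known. Named genes are the 9 members, the called genes of each list (up to the 5 with the smallest p in each direction, otherwise its most abundant gene), and up to 3 genes most alike to each member. Not every gene that meets the rule is named. Hapln3, Col2a1 and the ovariectomy values of single list genes were added after their values were seen.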

Additional observations from a re-analysis of the deposited data

Results flagged for a closer look

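Of 36 groups of member levels searched, 3 held a rat far from the others of its group, where chance alone gives about 5% of groups. Intact female 3 had the highest Ncan of its group, 220.981 CPM against 186 to 198 in the others. Intact male 1 had the highest Vcan, 138.402 CPM against 119 to 124. Intact female 4 had the lowest Tnr, 140.223 CPM against 157 to 165.

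Of 72 groups of list levels, as mean log2 CPM, 8 held such a rat. The oligodendrocyte precursor list was high in intact male 1, at 5.84587, and low in intact female 4, at 5.54207. OVX female 4 had the lowest oligodendrocyte level, 9.3547, the lowest microglia level, 4.16021, and the highest neuron level, 8.65485, of its group. Intact female 1 had the lowest astrocyte level, 7.91649, and intact female 5 the lowest microglia level, 3.99764. Intact female 6 had the highest cervical Hox level, 1.53473.

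For Cd44, the hyaluronan receptor, the test of a difference between the castration and ovariectomy responses gave an edgeR log2 difference of 0.506397 (adjusted p = 0.0973), past the threshold of 0.1 and not one of 0.05. Within the shorter-fragment libraries it stood at 0.30 and was not called (adjusted p = 0.501). It was called higher in GDX than in intact males and stood at -0.05 in OVX against intact females.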

How the results depend on the processing

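The log2 changes of Acan and Hapln4 after castration were negative under every alternative run, from -0.54 to -0.06 for Acan and from -0.53 to -0.11 for Hapln4. Both were called with each single rat left out. Depth limits Acan and Hapln1 most. Where a value below changed, the cause was not tested. The shorter-fragment fits held fewer rats as well as 1 fragment class.

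Members called after castration came to 1 with fragment class as a term, 0 in shorter-fragment libraries, 0 with the meninges term and 1 with the neuron term, and to 2 to 4 with single rats left out (4 without GDX male 1). Members called between intact males and females came to 2 by DESeq2, 1 with the class term and 0 to 1 with rats left out. All genes called after castration came to 1264 at 0.05, 796 with the class term, 440 in shorter-fragment libraries, 7 with the meninges term, 1221 with the neuron term and 1202 (without GDX male 5) to 2446 (without GDX male 1) with rats left out.

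After ovariectomy the counts of all genes called were 1 at 0.05, 174 by DESeq2, 11 with no filter, 9 with all 22 rats in 1 fit, 3 with the class term, 8 with the meninges term and 0 (without OVX female 1 or 6) to 113 (without intact female 1) with rats left out. For the difference between the responses they were 2 at 0.05, 243 by DESeq2, 33 with no filter, 6 with the class term, 5 in shorter-fragment libraries, 1 with the meninges term, 6 with the neuron term and 1 (without GDX male 5) to 275 (without GDX male 1) with rats left out. Between intact sexes they were 333 at 0.05, 34 in shorter-fragment libraries and 352 (without intact male 1) to 777 (without intact female 1). Between gonadectomised sexes they were 130 by DESeq2, 61 with all 22 rats and 23 (without OVX female 1) to 44 (without GDX male 1). For fragment class they were 0 at 0.05, 57 by DESeq2, 210 with no filter and 0 to 1 with rats left out. Relations called came to 1 after centring within group and class and to 10 with a prior count of 0.5, where Ptprz1 with the dorsal horn list was not called.

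Reversed log2 changes, all of values that were not called, were these. After castration with the meninges term, Bcan stood at 0.00066 and Vcan at -0.0065. After ovariectomy with the class term, Bcan stood at 0.10, Vcan at 0.13, Hapln2 at 0.0027 and Ptprz1 at 0.064. In shorter-fragment libraries Bcan stood at 0.10, Vcan at 0.12 and Ptprz1 at 0.060. With the neuron term Bcan stood at 0.083, Hapln4 at 0.038 and Ptprz1 at 0.090, and with the meninges term Hapln2 stood at 0.0065. Hapln1 stood at -0.00078 with no filter and -0.0016 with all 22 rats in 1 fit. In the difference between responses with the meninges term Hapln2 stood at 0.075, and between intact sexes in shorter-fragment libraries Vcan stood at 0.093.

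With single rats left out, these values crossed 0. After ovariectomy Bcan ran from -0.047 to 0.0055, Hapln1 from -0.050 to 0.065, Tnr from -0.020 to 0.031 and Ptprz1 from -0.028 to 0.027. Between intact sexes Bcan ran from -0.027 to 0.026, Vcan from -0.069 to 0.0030 and Hapln1 from -0.015 to 0.075. Between gonadectomised sexes Bcan ran from -0.052 to 0.0019 and Tnr from -0.0082 to 0.039. For fragment class Hapln1 ran from -0.038 to 0.10, Hapln2 from -0.058 to 0.064 and Hapln4 from -0.035 to 0.077.

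With rat number as a replicate block, which assumes a pairing that same-numbered rats did not show (r from -0.0999 to 0.151), 1274 genes were called after castration, 0 after ovariectomy, 0 for the difference between responses and 255 between intact sexes. In that fit Bcan stood at -0.0092 and Hapln1 at -0.0098 between intact sexes, Tnr at -0.0013 between gonadectomised sexes, and Ncan at -0.0016, Hapln1 at -0.023 and Hapln2 at -0.015 for fragment class.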
